A study of Homo sapiens with 2 samples.

Results

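The enzymes that build cholesterol and fatty acids were read as 40 named genes, 19 of sterol synthesis and 21 of fatty acid synthesis, activation and entry into glycerolipids, out of 19775 genes on the array. The list was set by gene name and pathway, with no measured value in its rule but with earlier results of these arrays known, and where a gene had several probe sets the brightest by mean log2 signal over both arrays stood for it. Of the 40 genes, 35 had a probe set that the annotation ties to no other gene and 34 were above the floor described below. CYP51A1 was covered by 2 probe sets, ELOVL1 by 2 and FADS1 by 3, all annotated with another gene as well, and these genes together with FDFT1 and ACSL3 were not analysed here.

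The cells were A549, an established human lung adenocarcinoma line. In monolayer culture they grew attached for 12 days in DMEM with 10% FBS, penicillin, streptomycin and glutamine. In spheroid culture they grew unattached for 12 days without serum, in DMEM/F12 to which N2 supplement, EGF at 20 ng/ml and bFGF at 10 ng/ml had been added. The cultures thus differed in attachment, serum, base medium and additives at once, and these cannot be told apart. Each culture gave 1 RNA sample on 1 Affymetrix Human U133 plus 2.0 array, so no difference between the cultures has a replicate check, and no test or error across cultures could be computed. Titles and cell line name A549 for both samples, whereas a free description attached to both names a hepatoma line and a compound, which was not used for the grouping.

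Signals are MAS5 intensities on a linear scale. The floor was each array's median signal, 108 in monolayer and 119 in spheroid culture, and lower values were raised to it before a ratio was taken. Ratios are spheroid over monolayer, and a signal on one probe set is compared only with the same probe set on the other array. A gene is counted as higher or lower past a limit of 3-fold, with a limit of 2-fold beside it. Between the brightest 2 probe sets of the same gene the log2 ratio differed with an SD of 0.50 over 5453 genes. This is a spread between probe sets on the same arrays and does not measure variation between arrays or between cultures. The ratio of 3' to 5' signal was 1.55 for actin and 1.09 for GAPDH on the monolayer array, and 1.99 and 1.15 on the spheroid array.

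Cholesterol is made from acetyl-CoA through mevalonate, isoprenoid diphosphates, squalene and a chain of sterol intermediates in the endoplasmic reticulum, and the isoprenoid intermediates also feed protein prenylation, dolichol and ubiquinone. Fatty acids are made in the cytosol from acetyl-CoA and malonyl-CoA, then desaturated, elongated and joined to coenzyme A before they enter lipids. Genes of both pathways are classical targets of the SREBP transcription factors, which are released from the endoplasmic reticulum membrane when its sterol content is low and which bind promoters together with NF-Y and Sp1.

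Sterol and fatty acid synthesis genes were mostly higher in spheroid culture. Past the limit of 3-fold, 10 of the 34 genes above the floor were higher and 0 were lower, while of all 13229 genes above the floor 2.34% were that much higher and 2.11% that much lower. At the limit of 2-fold, 21 of the 34 were higher and 0 were lower, beside 6.86% and 5.5% of all genes. The log2 ratio was above 0 for 33 of the 34 genes and below 0 for 1, or 30 and 4 when each array was first divided by its median. Its median was 1.20, a 2.30-fold difference, and over all genes above the floor the median was 0.04. When all genes were ranked from the highest ratio down, 4 of the 34 lay in the top 1%, 19 in the top 5% and 25 in the top 10%. All 34 genes were above the floor in both cultures, so none of these ratios was set by the floor alone, and of the 11528 genes above it in both cultures 1.96% were at least 3-fold higher. In whole cultures, a larger share of cells expressing a gene and more RNA per cell cannot be told apart.

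**Figure D1:**
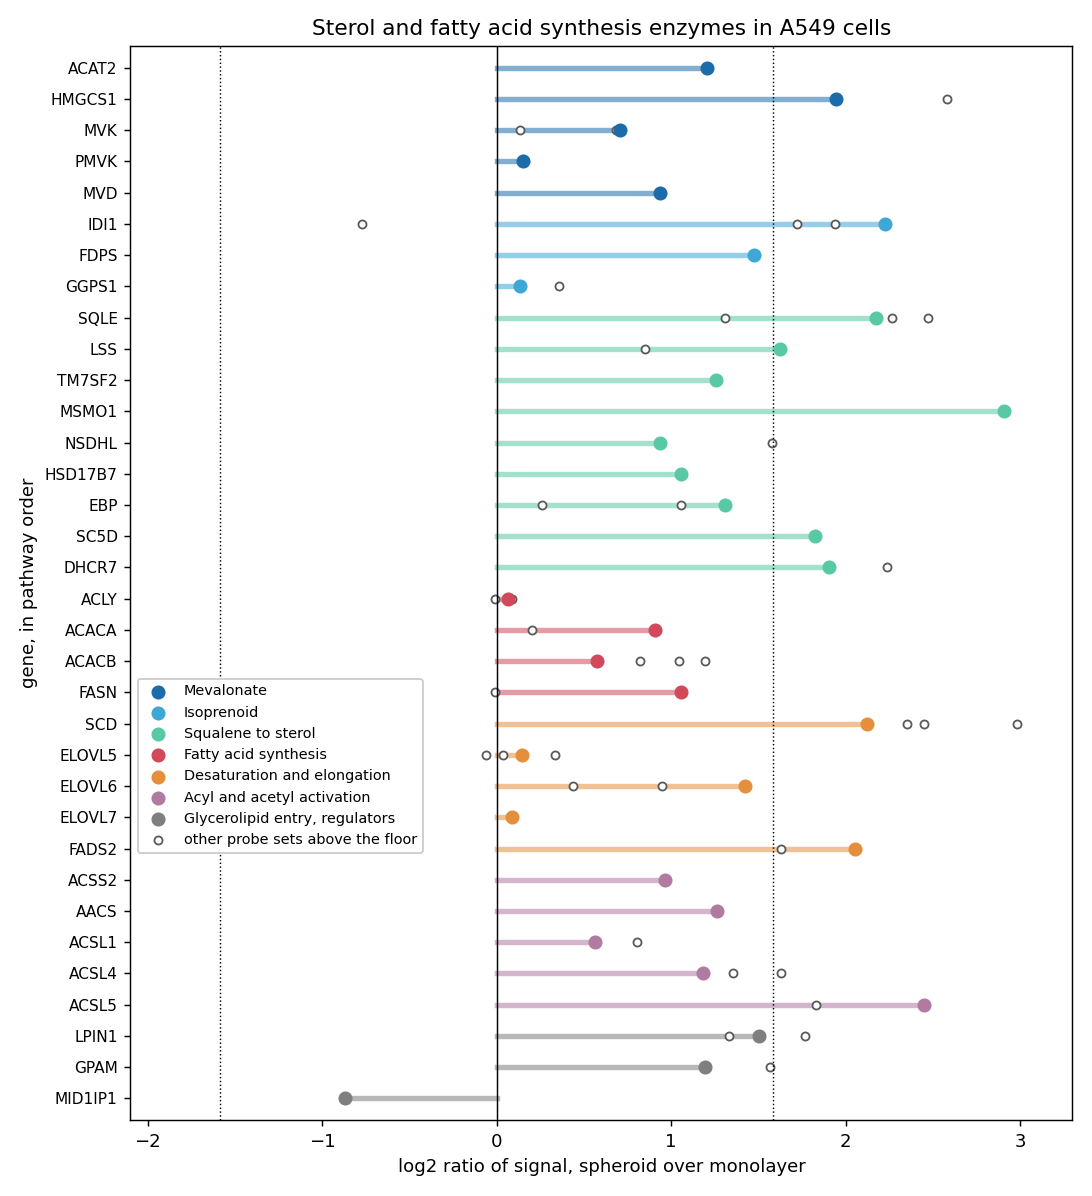
Log2 ratio of the signal in spheroid culture over that in monolayer culture (x axis) for the 34 genes above the floor, in pathway order from top to bottom and coloured by step, with filled points for the probe set each gene was read from, open points for its other probe sets above the floor and dotted lines at 3-fold. All points of the sterol branch except 1 open point of IDI1 lie to the right of 0, with MSMO1 farthest at 2.91, and MID1IP1 is the only filled point to the left, joined by GGPS1, ACLY and ELOVL7 when each array is divided by its median.

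All 17 measured genes of the sterol branch were higher in spheroid culture, although GGPS1 turned lower when each array was divided by its median. Of the 17 genes, 7 were at least 3-fold and 12 at least 2-fold higher, and the median log2 ratio was 1.31. The 17 fatty acid genes above the floor had a median of 1.06, with 3 at least 3-fold and 9 at least 2-fold higher. Whether the branches differ was not tested.

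The mevalonate steps turn acetyl-CoA into the isoprenoid building unit. ACAT2, the cytosolic thiolase that joins acetyl-CoA units, had a monolayer signal of 1175 and a spheroid signal of 2712, 2.31-fold higher. HMGCS1, the cytosolic synthase that makes HMG-CoA, had 538 and 2070.1, 3.85-fold higher, and its other probe set gave 143 and 858, 5.99-fold higher. HMGCS1 was thus past 3-fold on each of its 2 probe sets, whereas the kinases that follow it were not. MVK, mevalonate kinase, had 773 and 1263, 1.63-fold higher, and of its other probe sets 1 was 1.10-fold and 1 at least 1.61-fold higher. PMVK, phosphomevalonate kinase, had 1359 and 1507, 1.11-fold higher. MVD, the decarboxylase that closes this stretch, had 115 and 219.7, 1.91-fold higher, with the monolayer signal close to the floor. Over these 5 genes the median log2 ratio was 0.93, with 1 gene past 3-fold.

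The isoprenoid steps split between the way to squalene and the way to geranylgeranyl chains. IDI1, the isomerase of the isoprenoid diphosphates, had a monolayer signal of 1588 and a spheroid signal of 7426, 4.68-fold higher. Of its 4 probe sets above the floor, 3 were higher and 1 was lower, the latter with 656 and 385. FDPS, which makes farnesyl diphosphate for sterols and prenylation, had 1997 and 5542, 2.77-fold higher. GGPS1, which extends farnesyl to geranylgeranyl diphosphate and so leads away from sterols, had 2029 and 2227, 1.10-fold higher, and 1.28-fold on its other probe set. GGPS1 had the smallest ratio of the 3, with a log2 ratio of 0.13 against 2.23 for IDI1 and 1.47 for FDPS. IDI1 and FDPS act before the split and serve both ways. FDFT1, the gene on the way to squalene, was not analysed here, so the ways after the split were not compared.

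The steps from squalene to cholesterol held the most genes past the limit, 5 of 9 at least 3-fold and 8 of 9 at least 2-fold higher, with a median log2 ratio of 1.63. SQLE, squalene epoxidase, which inserts the first oxygen, had a monolayer signal of 2083 and a spheroid signal of 9401, 4.51-fold higher. Its 4 probe sets ran from 2.47-fold to 5.54-fold, all higher. LSS, which folds the epoxide into lanosterol, had 880.4 and 2716, 3.09-fold higher and just past the limit, and its other probe set above the floor was at least 1.80-fold higher. The enzymes that remove methyl groups from the sterol ring were uneven in size. MSMO1, the methylsterol oxidase of that removal, had 1953 and 14642, 7.50-fold higher, on its only probe set. NSDHL, the dehydrogenase that acts after it, had 604 and 1153, 1.91-fold higher, and 2.98-fold on its other probe set. HSD17B7, the reductase of the same removal, had 1299 and 2697, 2.08-fold higher, on a probe set whose name ends in _x_at and which may also bind related transcripts. MSMO1 stood at rank 49 of 13229 genes from the highest ratio down, against 1048 for NSDHL and 815 for HSD17B7.

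The reductases, isomerase and desaturase of the sterol ring among the 40 genes were all more than 2-fold higher. TM7SF2, a sterol reductase, had a monolayer signal of 725 and a spheroid signal of 1731, 2.39-fold higher. EBP, the isomerase that shifts a ring double bond, had 1454 and 3596, 2.47-fold higher, and the 3 measured ones of its probe sets ran from 1.20-fold to 2.47-fold. SC5D, the desaturase, had 732 and 2589.9, 3.54-fold higher, with its other probe set at the floor in both cultures. DHCR7, which reduces the precursor that SC5D makes to cholesterol, had 989.5 and 3707, 3.75-fold higher, and 4.71-fold on its other probe set. The late desaturase and reductase were thus both past the limit, and the steps between them and MSMO1 lay nearer to 2-fold.

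**Figure D2:**
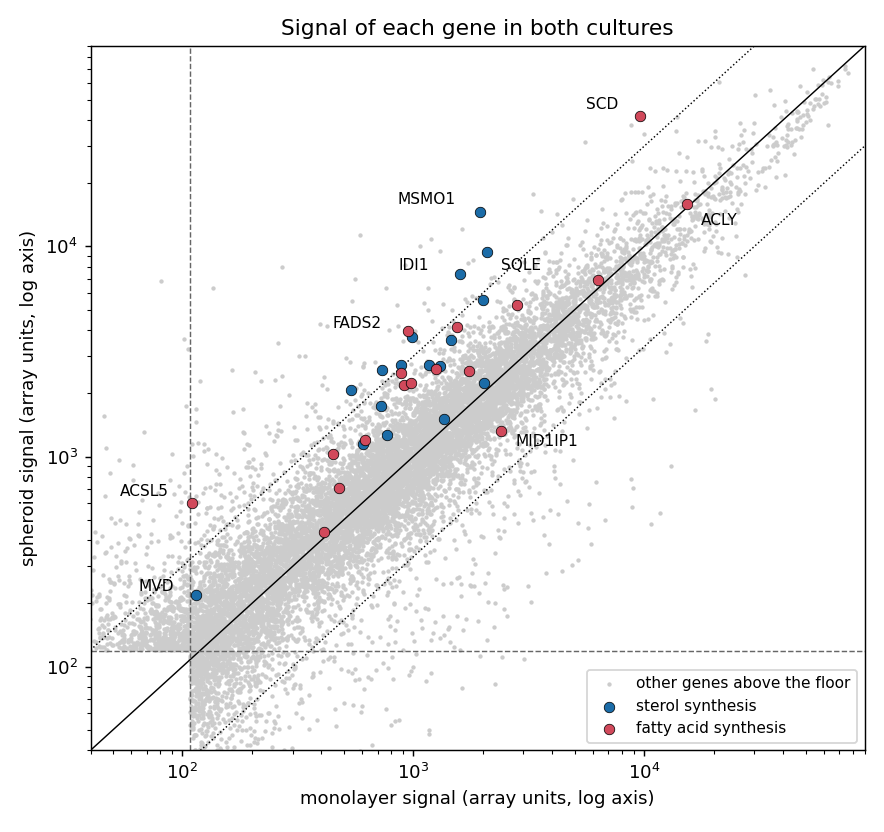
MAS5 signal in monolayer (x axis) and in spheroid culture (y axis), both on log axes, for the sterol genes (blue), the fatty acid genes (red) and all other genes above the floor (grey), with a solid line of equal signal, dotted lines at 3-fold and dashed lines at the floors of 108 and 119. Of the 34 coloured points 10 lie above the upper dotted line, ACLY lies on the line of equal signal at 15282 and 15967, MID1IP1 lies below it at 2407 and 1317, and ACSL5 and MVD sit just above the monolayer floor.

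Fatty acid synthesis proper was the least different step. ACLY, which makes cytosolic acetyl-CoA from citrate, had a monolayer signal of 15282 and a spheroid signal of 15967, a log2 ratio of 0.06, and its 3 probe sets lay between -0.01 and 0.09. ACACA, the acetyl-CoA carboxylase that makes malonyl-CoA for synthesis, had 2811 and 5262, 1.87-fold higher, and 1.15-fold on its other probe set. ACACB, the carboxylase tied to the control of fatty acid oxidation, had 477 and 711, 1.49-fold higher, with all 4 probe sets above the floor higher, up to 2.29-fold. FASN, the synthase itself, had 1252 and 2605, 2.08-fold higher, and its other probe set was at the floor in spheroid culture and barely above it in monolayer. None of the 4 genes reached 3-fold and their median log2 ratio was 0.74.

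Desaturation and elongation divided by enzyme. SCD, the stearoyl-CoA desaturase that makes oleate, had a monolayer signal of 9573 and a spheroid signal of 41664, 4.35-fold higher, and its 4 probe sets ran from 4.35-fold to 7.89-fold. FADS2, the desaturase that acts first on polyunsaturated fatty acids, had 952 and 3949.9, 4.15-fold higher, and its other probe set was at least 3.10-fold higher. Both desaturases were past the limit on every probe set above the floor. ELOVL6, which elongates saturated and monounsaturated chains, had 1548 and 4154, 2.68-fold higher, and its 3 probe sets ran from 1.35-fold upward. ELOVL5, which elongates polyunsaturated chains, had 6292 and 6945, 1.10-fold higher, and its probe sets went both ways around 0. ELOVL7, an elongase of long saturated chains, had 411 and 436, 1.06-fold higher. Of these 3 elongases, only ELOVL6 lay past 2-fold.

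Enzymes that activate acids with coenzyme A were all higher. ACSS2, the cytosolic enzyme for acetate, had a monolayer signal of 616 and a spheroid signal of 1203, 1.95-fold higher. AACS, which activates acetoacetate for lipid synthesis, had 914 and 2192, 2.40-fold higher. The acyl-CoA synthetases of long-chain fatty acids differed among themselves. ACSL1 had 1739.8 and 2566, 1.47-fold higher, and 1.74-fold on its other probe set. ACSL4, which prefers arachidonate, had 981 and 2228, 2.27-fold higher, with all 3 probe sets higher. ACSL5 had 109.6 and 598, 5.46-fold higher, but its monolayer signal was barely above the floor. Its other probe set, at the floor in monolayer, was at least 3.56-fold higher.

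At the entry into glycerolipids, both enzymes were more than 2-fold higher. GPAM, the mitochondrial acyltransferase that puts the first acyl chain on glycerol phosphate, had a monolayer signal of 450.1 and a spheroid signal of 1031, 2.29-fold higher, and 2.96-fold on its other probe set. LPIN1, a phosphatidate phosphatase that yields diacylglycerol, had 884 and 2507, 2.84-fold higher, and its 3 probe sets ran from 2.52-fold to 3.40-fold. MID1IP1, which binds acetyl-CoA carboxylase and promotes its assembly into filaments, was the single gene that was lower, with 2407 and 1317, 1.83-fold lower on its only probe set. Its relative THRSP had 3 probe sets, all at the floor in both cultures, the brightest with 55.1 and 67.1, and has no ratio here.

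Agreement among probe sets of the same gene was checked where a gene had more than 1 above the floor. This was so for 22 genes, of which 18 had all such probe sets higher, 0 had all lower and 4 were mixed, namely IDI1, ACLY, FASN and ELOVL5. Counted by probe set, the members had 72 above the floor, with 66 higher, 5 lower and 1 without a direction because its signal and its floored ratio pointed opposite ways. Of the 10 genes at least 3-fold higher, MSMO1 and SC5D rested on a single probe set above the floor. Of the same 10, 6 were read from a probe set with a name ending in _s_at or _x_at, as were 18 of the 34 members. The brightest 2 probe sets above the floor in both cultures differed by a median of 0.33 and at most 0.99 in log2 ratio over 17 genes. From 1.63 for LSS to 2.91 for MSMO1, each of the 10 genes lay within 0.50 of the next, the SD between probe sets, so neighbours in this order are not told apart. Wider gaps have no replicate check either.

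NF-Y boxes were frequent in the promoters of the sterol genes. RefSeq promoter windows of GRCh38.p14, each from 250 bases before to 50 bases after a listed transcript start, were matched for 36 of the 40 genes by symbol, and ACAT2, FDFT1, SQLE and FASN had none. The letters CCAAT, read on either strand, occurred in a window of 14 of 16 sterol genes (87.5%), 13 of 20 fatty acid genes (65%) and 39.7% of 27305 genes. Windows with at least 2 such boxes were found for 62.5% of the sterol genes, 30% of the fatty acid genes and 12.9% of all genes. Genes with several listed starts have several windows, and by window the shares were 69.6% of 23 sterol windows, 45.5% of 33 fatty acid windows and 34.6% of all 35116. The Sp1 letters GGGCGG were in a window of 32 of 36 members (88.9%) and 48.3% of all genes. By window the shares were 75% of 56 member windows and 45.0% of all 35116. All genes here are those with a window, above the floor or not. Among the 10709 of them above the floor, 42.7% held an NF-Y box. The strict letters of a sterol regulatory element, TCACNCCAC, were in 2 of 36 members, ACSL1 and MID1IP1, in 0 of 16 sterol genes and in 1.39% of all genes. The E-box CACGTG was in 3 of 36 (8.33%) and 8.77%. These are matches of letters, not binding sites.

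The stretches shown are the 250 bases before the listed start, 5′ to 3′ on the strand of the gene, chosen after their values were seen to set promoters with many boxes beside 1 without and beside the gene that was lower. Capitals mark CCAAT or its reverse complement ATTGG, and in MID1IP1 also the reverse complement of TCACNCCAC. MSMO1 (chr4:165327419-165327668, plus strand, 7.50-fold higher) held 4 boxes, NSDHL (chrX:152830813-152831062, plus strand, 1.91-fold higher) 5 of which 2 overlap, EBP (chrX:48521558-48521807, plus strand, 2.47-fold higher) 3, SCD (chr10:100346983-100347232, plus strand, 4.35-fold higher) 2 and MID1IP1 (chrX:38801209-38801458, plus strand, 1.83-fold lower) 1. PMVK (chr1:154936720-154936969, minus strand, 1.11-fold higher) held 0, and its listed start lies inside the annotated gene and not at its outer end.
MSMO1: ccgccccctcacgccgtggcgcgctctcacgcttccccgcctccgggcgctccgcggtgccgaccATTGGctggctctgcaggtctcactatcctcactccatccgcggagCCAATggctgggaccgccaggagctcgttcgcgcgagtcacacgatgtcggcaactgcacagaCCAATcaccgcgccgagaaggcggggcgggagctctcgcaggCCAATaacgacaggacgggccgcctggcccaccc
NSDHL: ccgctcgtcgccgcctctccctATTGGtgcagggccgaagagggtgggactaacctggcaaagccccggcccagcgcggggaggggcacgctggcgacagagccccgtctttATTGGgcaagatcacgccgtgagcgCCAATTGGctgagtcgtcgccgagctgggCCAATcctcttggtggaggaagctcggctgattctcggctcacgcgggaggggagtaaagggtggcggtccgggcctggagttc
EBP: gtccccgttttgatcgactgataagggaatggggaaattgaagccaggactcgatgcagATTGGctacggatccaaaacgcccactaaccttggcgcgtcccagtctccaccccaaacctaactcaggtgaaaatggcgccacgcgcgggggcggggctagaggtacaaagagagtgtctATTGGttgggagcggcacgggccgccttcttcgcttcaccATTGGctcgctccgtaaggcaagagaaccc
SCD: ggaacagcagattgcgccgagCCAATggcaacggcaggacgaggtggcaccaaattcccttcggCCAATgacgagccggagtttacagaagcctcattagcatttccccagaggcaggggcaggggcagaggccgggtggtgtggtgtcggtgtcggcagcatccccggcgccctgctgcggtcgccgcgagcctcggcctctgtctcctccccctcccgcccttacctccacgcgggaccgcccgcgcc
MID1IP1: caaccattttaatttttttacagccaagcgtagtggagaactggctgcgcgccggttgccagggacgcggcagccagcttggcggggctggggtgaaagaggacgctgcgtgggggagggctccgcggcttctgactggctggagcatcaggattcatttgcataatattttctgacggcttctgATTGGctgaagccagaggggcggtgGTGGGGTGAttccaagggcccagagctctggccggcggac
PMVK: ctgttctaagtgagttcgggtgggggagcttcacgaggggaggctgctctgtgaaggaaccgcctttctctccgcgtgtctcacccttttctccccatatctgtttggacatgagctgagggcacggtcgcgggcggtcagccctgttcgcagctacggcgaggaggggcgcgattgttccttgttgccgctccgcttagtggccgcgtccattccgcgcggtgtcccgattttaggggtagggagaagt

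The genes with the most boxes, NSDHL and MVK with 5 each, were 1.91-fold (2.98-fold on its other probe set) and 1.63-fold higher, and MSMO1 with 4 was 7.50-fold higher. ACSL5, 5.46-fold higher, had a window with neither a CCAAT nor a GGGCGG match. Over the 31 members with a window and a ratio, the median log2 ratio was 1.12 for the 24 with at least 1 box and 1.26 for the 7 without. Within the sterol branch 14 genes with a box had a median of 1.39. PMVK, the only one without, had 0.15, and its listed start lies inside the annotated gene. In the fatty acid branch the medians were 0.74 for 10 genes with and 1.34 for 6 without. Over all 10709 genes with a window and above the floor, the medians were 0.02 with and 0.04 without a box.

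**Figure D3:**
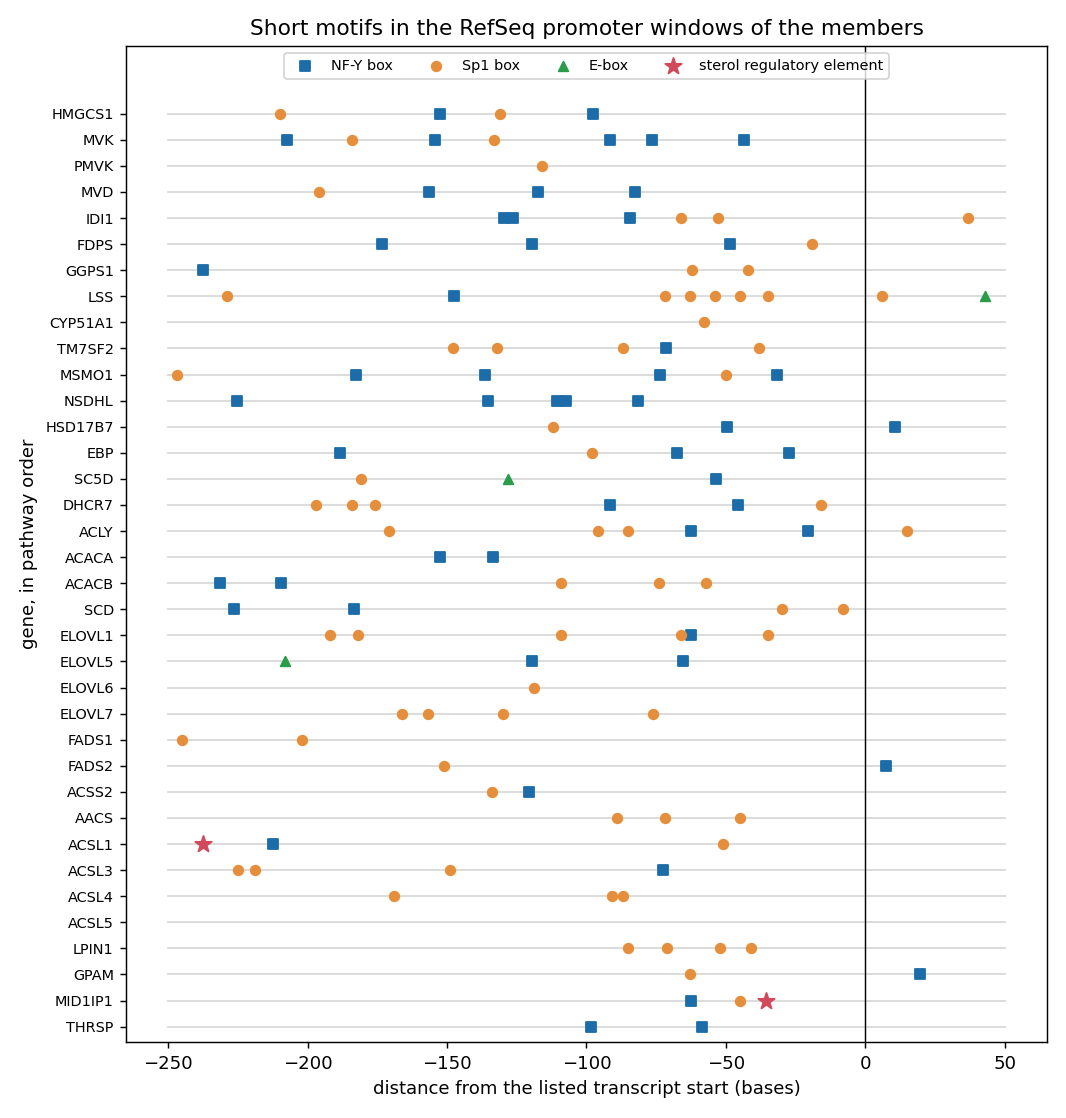
Position of the letters of the NF-Y box, the Sp1 box, the E-box and the sterol regulatory element on either strand, relative to the transcript start (x axis, bases), in the promoter window with the most NF-Y boxes of each matched gene, in pathway order. NF-Y boxes are found in most rows of the sterol block, up to 5 per row in MVK and NSDHL, and the sterol regulatory element appears in 2 rows, ACSL1 and MID1IP1.

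Enzymes that share the pathway but were not among the 40 were taken from lists by function. Of 7 further genes of sterol synthesis, 4 had a probe set of their own and 3 were above the floor. ERG28, a scaffold of the enzymes that remove sterol methyl groups, had a monolayer signal of 1047 and a spheroid signal of 3518, 3.36-fold higher, and was the only one of them past the limit. TMEM97, a sterol-binding membrane protein, had 5270.4 and 10182, and LBR, a nuclear envelope protein with sterol reductase activity, had 4787 and 2576, 1.86-fold lower. LBR and TM7SF2 can carry out the same reduction and stood in opposite directions, with log2 ratios of -0.89 and 1.25. The 13 measured users of farnesyl and geranylgeranyl diphosphate, such as prenyltransferases and ubiquinone and dolichol enzymes, had a median of -0.18. Past 3-fold 0 were higher and 0 lower, beside 2.34% and 2.11% of all genes above the floor. Among the 13 users COQ2, the prenyltransferase of ubiquinone synthesis, was 2.68-fold lower, with a log2 ratio of -1.42 on this probe set and -0.08 on its other.

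Counterparts in mitochondria and beside the fatty acid enzymes showed smaller ratios. The mitochondrial thiolase ACAT1 had a monolayer signal of 4244 and a spheroid signal of 3463, 1.23-fold lower, where its cytosolic relative ACAT2 was 2.31-fold higher. Of the other genes of mitochondrial ketone body metabolism with a probe set, BDH1 had 140.2 and 205, 1.46-fold higher, and OXCT1 had 115 and 106 and gave no direction. The 13 partners and paralogs of desaturases and elongases had a median log2 ratio of 0.16. At 3-fold 0 were higher and 1 was lower, beside 2.34% and 2.11% of all genes above the floor. That gene was ELOVL2, an elongase of polyunsaturated chains, with 509 and 157, 3.24-fold lower on the brighter of 2 probe sets that were both lower. SCD5, the paralog of SCD, had a log2 ratio of 0.25 against 2.12 for SCD, with its 3 probe sets above the floor between -0.18 and 0.77. FADS3 had -0.88 against 2.05 for FADS2, and 0.05 on its other probe set. The electron donor CYB5A, which serves the desaturases, had 11339 and 5813, 1.95-fold lower, on 3 probe sets that were all lower.

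Pathways that supply or consume the products stayed within 3-fold. The 10 genes of cytosolic citrate and NADPH supply had a median log2 ratio of -0.14, 3 of them higher, with malic enzyme ME1 at 7986 and 16810.5 as the only one past 2-fold. The 20 genes of fatty acid oxidation had a median of 0.13, or -0.01 with both arrays set to the same median. Of them 14 were higher and 6 lower. HADH and ECI1, both of mitochondrial beta-oxidation, were 2.08-fold and 2.16-fold lower. CPT1A was 1.97-fold higher, with all 4 probe sets higher. The 23 genes of glycerolipid, phospholipid and sterol ester assembly had a median of 0.18, with PCYT1A and PCYT2, the cytidyl transferases of phosphatidylcholine and phosphatidylethanolamine synthesis, 2.42-fold and 2.15-fold higher, although 1 of the 3 probe sets of PCYT1A had a log2 ratio of -0.02. GPAT3, an acyltransferase of the same reaction as GPAM, was 1.92-fold lower and GPAT4 1.31-fold higher. All 3 lists had 0 genes at least 3-fold higher or lower, beside 10 higher among the 34 members. Of all genes above the floor 2.34% were that much higher and 2.11% lower. At those shares lists of 10 to 23 genes can hold none, so the counts of 0 do not set these pathways apart from other genes. Genes of these lists short of 3-fold were named after their values were seen, as relatives of members or as the widest of their list.

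Regulators of SREBP and genes of sterol uptake or efflux had a median log2 ratio of 0.72 over 15 genes. Past 3-fold 2 were higher and 0 lower, beside 2.34% and 2.11% of all genes above the floor. INSIG1, which retains the SREBP complex in the endoplasmic reticulum, had a monolayer signal of 540.2 and a spheroid signal of 5478, 10.1-fold higher, and STARD4, a sterol carrier, had 237 and 1294, 5.45-fold higher. SREBF2, the SREBP gene mostly tied to sterol enzymes, had 437 and 1269.7, 2.91-fold higher, and its 3 probe sets ran from 1.38-fold upward. SREBF1, mostly tied to fatty acid enzymes, had 1682 and 1659.5, 1.01-fold lower, with 1 probe set higher and 1 lower.

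**Figure D4:**
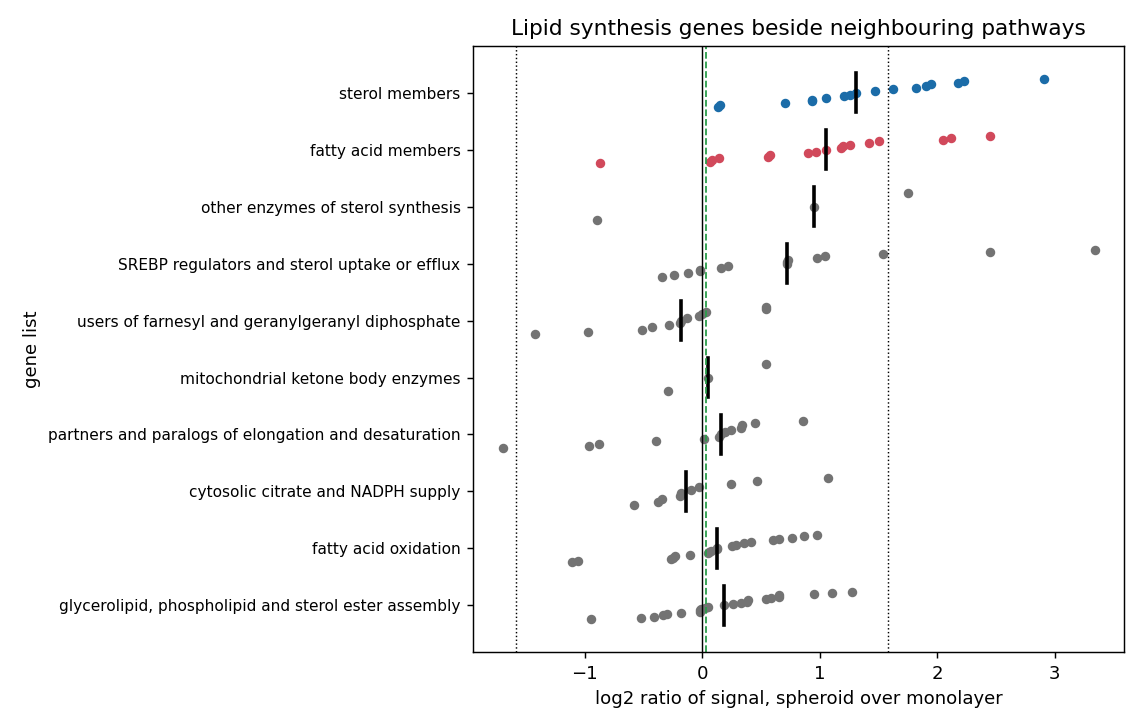
Log2 ratio of spheroid over monolayer (x axis) for each gene above the floor of the sterol branch, the fatty acid branch and the related lists, with black bars at list medians, dotted lines at 3-fold and a dashed green line at 0.04, the median of all genes above the floor. The members centre on 1.31 and 1.06 and the regulators on 0.72, while the lists of prenyl users, citrate and NADPH supply, oxidation and lipid assembly centre between -0.18 and 0.18, with oxidation at 0.13 here and at -0.01 after division by the median.

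Markers of cell types were read beside these ratios. All 12 measured A549 markers were above the floor in both cultures, with signals summing to 416770 on the monolayer array and 442933 on the spheroid array, and GPX2 and KRT19 were 5.71-fold and 4.64-fold higher and KRT7 was 3.75-fold lower. Of 7 alveolar type 2 markers, 2 were at the floor in both cultures, the defining marker NKX2-1 among them. Signals summed to 1199 and 1999.7 over all 7. Of the 5 above the floor, 4 were higher and 1 lower, with a median log2 ratio of 0.57, and 0 were past 3-fold. Only 2 of the 5 were above the floor in monolayer, so the other ratios are lower bounds. With no floor or a floor at the 25th percentile, 3 of 7 were at least 3-fold higher. Hepatocyte and hepatoma markers were mostly higher in spheroid culture. Of 26 measured, 18 were above the floor, with 16 higher and 2, FGG and APOB, lower by less than 2-fold. Past 3-fold, 5 were higher and 0 lower. Only 11 of the 18 were above the floor in monolayer, and the rest have lower bounds. The median log2 ratio was 1.07. Without probe sets named _s_at or _x_at it was 0.39 over 8 genes, against 1.20 for the members. The other 8 markers were at the floor in both cultures, the defining markers TTR, TF and APOA2 among them. The signals of all 26 summed to 6693 in monolayer and 23335 in spheroid culture. ALB was at least 42.9-fold higher, ITIH2 10.4-fold and APOH 8.85-fold. Of 8 adipocyte markers 6 were at the floor, ADIPOQ, LEP and FABP4 included, whereas PLIN1 was at least 3.66-fold and CIDEC 3.52-fold higher, and the signals of all 8 summed to 711 and 2257. Of 8 fibroblast markers 6 were at the floor and the other 2 were lower by less than 2-fold, all 6 endothelial markers were at the floor, and of 6 leukocyte markers 3 were at the floor and CD14 was at least 3.66-fold lower. These counts use the brightest probe set of a gene by mean log2 signal, and COL3A1, LUM, LYZ and CD36, counted at the floor, each had 1 other probe set above it. The part of hepatocyte-type or adipocyte-type expression in the ratios of the lipid enzymes was not tested.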

How the data were processed

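RNA of A549 cells in monolayer and in spheroid culture was measured on 1 array each. The authors deposited signal intensities on a linear scale. MAS5 and GCOS are named in the submitters' processing notes, with versions not given in the sources used here, and the methods name GeneSpring GX for later steps. The deposited values had been scaled, since the mean without the lowest and highest 2% of probe sets was 500.1 on each array. No further scaling was applied. Of 54675 probe sets, 62 were controls, 41097 carried 1 gene, 1801 several and 11777 none, and symbols were updated through Entrez identifiers for 41043. Only probe sets with 1 gene were used. Values under the median of each array were raised to it. The probe set with the highest mean log2 intensity stood for a gene, and 13229 of 19775 genes passed the floor in either culture. A gene above it on 1 array has a lower bound for its ratio.

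With 1 array per culture no test was run, and genes were counted at 3-fold. Precision is limited by the number of arrays. Members and the 15 further lists (200 genes) were chosen with earlier results of these data known. The genes to name were all members, up to 3 genes per direction past 3-fold of each list, and all genes of the ketone body list, and others were added after their values were seen. Promoters with TCACNCCAC were to be printed for genes at least 3-fold higher, and 0 qualified. Alternatives were no floor, floors at the 25th and 75th percentiles, division by the median, quantile normalization, the geometric mean of probe sets, limits of 2-fold and 5-fold, and leaving out probe sets with names ending in _s_at or _x_at. The steps were tested on simulated data. Python 3.11.15, numpy 2.4.6, pandas 2.3.3 and matplotlib 3.10.9 were used.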

Additional observations from a re-analysis of the deposited data

How the results depend on the processing

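The count of members at least 3-fold higher, 10, stayed at 10 with no floor, with a floor at the 25th percentile and after quantile normalization, and was 9 with a floor at the 75th percentile, where ACSL5 dropped out, and 9 after each array was divided by its median, where LSS did. It was 7 with the geometric mean of the probe sets of a gene, without IDI1, LSS and SC5D. That mean includes probe sets at the floor in both cultures. For SC5D it averages 1.82 with a log2 ratio of 0.14 that only reflects the 2 floors. The count was 6 when probe sets with an _s_at or _x_at name were left out. This setting measured 21 of the 34 members and left out SC5D, DHCR7, SCD and ACSL5. At limits of 2-fold and 5-fold the count was 21 and 2. The count at least 3-fold lower was 0 under all of these. Division by the median moved the median of all genes from 0.04 to -0.10, and 4 members were then lower and 30 higher, with GGPS1, ACLY and ELOVL7 joining MID1IP1. The median log2 ratio of the members lay between 1.02 and 1.21, that of the sterol branch between 1.17 and 1.55 and that of the fatty acid branch between 0.90 and 1.07. Over all genes the count at least 3-fold higher, 309, was 1312 with no floor, 558 and 109 with floors at the 25th and 75th percentiles and 205 with the geometric mean. Of the hepatocyte and hepatoma markers 5 of 18 were at least 3-fold higher, against 3 of 18 with the geometric mean, 3 of 9 with a floor at the 75th percentile, 7 of 24 at the 25th, 7 of 26 with no floor and 1 of 8 when _s_at and _x_at probe sets were left out. No paired analysis was possible because each culture has 1 array.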
